A study of Mus musculus with 12 samples.

Results

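The IL-6 family of cytokines signals through a shared receptor chain, and 10 genes of its circuit were followed here across cartilage explants left untreated or treated with IL-1α or retinoic acid. They comprised the ligands Il6, Il11, Lif and Osm, the receptor chains Il6ra, Osmr, Lifr and Il6st, the transcription factor Stat3 and its feedback inhibitor Socs3. A probe belonged to the set when the symbol in the probe table was one of these names, which gave 23 of 46632 probes and 10 of 34509 symbols. Of the 23 probes, 13 were detected often enough to be tested, and they covered 9 of the 10 genes. The remaining gene, Il6, is described without that test.

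All explants were femoral head cartilage from 21-day-old TS-4/5∆cat mice, which carry in-frame deletions of the exons encoding the catalytic domains of both Adamts4 and Adamts5. The explants, 4 hips to a well, were left untreated, treated with 10 ng/mL IL-1α or treated with 10 µM retinoic acid for 3 days, and the study compared these treatments to find genes regulated by retinoic acid but not by IL-1. There were 12 Illumina bead arrays, 4 per treatment, with 2 per treatment in each of 2 batches. Batch 1 held the mouse line named Donut and batch 2 the line named Gertrude, so line and batch cannot be told apart, and wild-type explants were not analysed here. The sources used here do not say which arrays came from separate animals, and p-values therefore measure only the spread between these arrays.

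IL-6 and IL-11 bind their own receptor chains and then recruit gp130, the product of Il6st, while LIF and oncostatin M pair gp130 with the LIF receptor or the oncostatin M receptor. Receptor-bound Janus kinases then phosphorylate STAT3, which enters the nucleus and switches on target genes. Among these is Socs3, whose product binds gp130 and the kinases and shuts the signal down. In cartilage, IL-1 is known to induce several of these ligands, and members of the family promote loss of matrix.

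Between 13786 and 14965 probes were detected on the arrays of batch 1 and between 16732 and 19485 on those of batch 2. Over the kept probes, Pearson correlations were 0.983 to 0.995 between arrays of the same treatment and batch and 0.868 to 0.902 across batches within a treatment. Nos2, an IL-1 response gene, was detected on all 4 IL-1α arrays and on no other, at least 14.1-fold over untreated. Cyp26a1, which degrades retinoic acid, was detected on all 4 retinoic acid arrays and on no other, at least 19.2-fold over untreated. All 9 tested chondrocyte markers fell with retinoic acid and 7 of 9 with IL-1α, where 17.1% and 14.1% of all kept probes fell. The summed linear intensity of the chondrocyte list, 11 genes, was 76715 to 92690 in untreated explants, 45148 to 62135 with IL-1α and 15393 to 21714 with retinoic acid. In a whole explant, fewer cells of a type and less RNA per cell cannot be told apart. The part of the marker changes in the results below was not tested.

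The sequences just upstream of Lif, Il11, Socs3 and Il6 are shown, since Lif, Il11 and Socs3 rose with both treatments and Il6 names the family. Promoter windows of 9 of the 10 genes were found in RefSeq on GRCm38.p6, each with 250 bases before the transcription start and 50 after it, and the 250 bases before the start are printed. Capitals mark matches on either strand to TTCNNNGAA (STAT), GGG and TTCC with 3 bases between them (NF-kB), TGANTCA (AP-1) or TTGCNNAA (C/EBP). The stricter STAT letters TTCCNGGAA, which lie within the first pattern, were also searched. None of the matches shown overlaps another. The windows are chr11:4257318-4257567, plus strand, for Lif, chr7:4778142-4778391, minus strand, for Il11, chr5:30012864-30013113, plus strand, for Il6, and chr11:117969367-117969616, minus strand, for Socs3.
Lif: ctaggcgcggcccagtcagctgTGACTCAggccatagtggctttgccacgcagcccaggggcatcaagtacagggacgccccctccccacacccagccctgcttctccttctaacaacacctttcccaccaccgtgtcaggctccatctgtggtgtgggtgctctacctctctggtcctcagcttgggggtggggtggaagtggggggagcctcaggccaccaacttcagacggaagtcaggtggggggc
Il11: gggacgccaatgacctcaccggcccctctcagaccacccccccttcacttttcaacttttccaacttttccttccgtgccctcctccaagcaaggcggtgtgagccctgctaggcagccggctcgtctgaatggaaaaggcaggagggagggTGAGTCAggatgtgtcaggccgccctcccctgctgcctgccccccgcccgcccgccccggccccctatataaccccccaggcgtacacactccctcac
Il6: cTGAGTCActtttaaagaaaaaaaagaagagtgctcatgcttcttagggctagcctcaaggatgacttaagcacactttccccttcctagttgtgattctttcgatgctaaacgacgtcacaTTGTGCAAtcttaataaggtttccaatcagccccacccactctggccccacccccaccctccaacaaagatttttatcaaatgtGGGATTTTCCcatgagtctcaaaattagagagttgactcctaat
Socs3: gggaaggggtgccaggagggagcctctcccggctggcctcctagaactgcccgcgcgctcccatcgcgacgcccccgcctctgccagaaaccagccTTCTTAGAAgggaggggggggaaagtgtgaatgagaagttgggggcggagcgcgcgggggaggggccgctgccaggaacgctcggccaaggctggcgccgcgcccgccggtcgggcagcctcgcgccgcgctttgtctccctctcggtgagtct
The Lif window held 1 AP-1 match, 228 bases before the start, and the Il11 window held 1, 98 bases before it. The Il6 window held an NF-kB match 44 bases before the start, a C/EBP match 128 bases before it and an AP-1 match 249 bases before it. The Socs3 window held 1 STAT match, 154 bases before the start, and no other member window held one. Osmr had an AP-1 match just inside its transcribed part, and no match was found in the windows of Il6st, Il6ra, Lifr, Stat3 or the second, more upstream start of Il11. Over all 32851 windows of this length, 8.30% held the STAT letters, 1.15% the stricter STAT letters, 5.56% the NF-kB letters, 7.81% the AP-1 letters and 10.8% the C/EBP letters.

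With IL-1α, 5 of the 13 tested probes rose and 0 fell, where 15.2% of all 18200 kept probes rose and 14.1% fell. The 5 probes stood for Lif, Il11, Osmr, Stat3 and Socs3. With retinoic acid, 6 of the 13 rose, for the same 5 genes, and 2 fell, where 18.2% of all kept probes rose and 17.1% fell. The sixth is a second Osmr probe that was detected on the retinoic acid arrays alone and so was tested only because of them; without it 5 of 12 rose. The 2 that fell were the probes of Il6st and the brightest of Il6ra. Between the treatments, 15.2% of kept probes were higher under retinoic acid and 15.8% lower. Of the 12 member probes without that Osmr probe, 0 were higher by limma and 6 were lower, for Lif, Il6st, Il6ra and Socs3. The 6 include all tested Il6ra probes, 2 of which were detected in batch 2 alone. By gene, each at its brightest kept probe, 0 of 9 were higher and 4 lower. Over all 13 probes, 7 had an unadjusted p below 0.05. The Osmr probe itself was higher, as its selection requires. Both comparisons with untreated explants share the untreated arrays. Over the 9 genes, each at its brightest kept probe, the median difference was 0.40 on the log2 scale with IL-1α and 0.44 with retinoic acid, against 0.02 over all kept probes in either case. A probe is called here when the limma adjusted p, over all 18200 kept probes, is below 0.05. For IL-1α the unadjusted p was below 0.05 for 7 of the 13 probes.

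**Figure D1:**
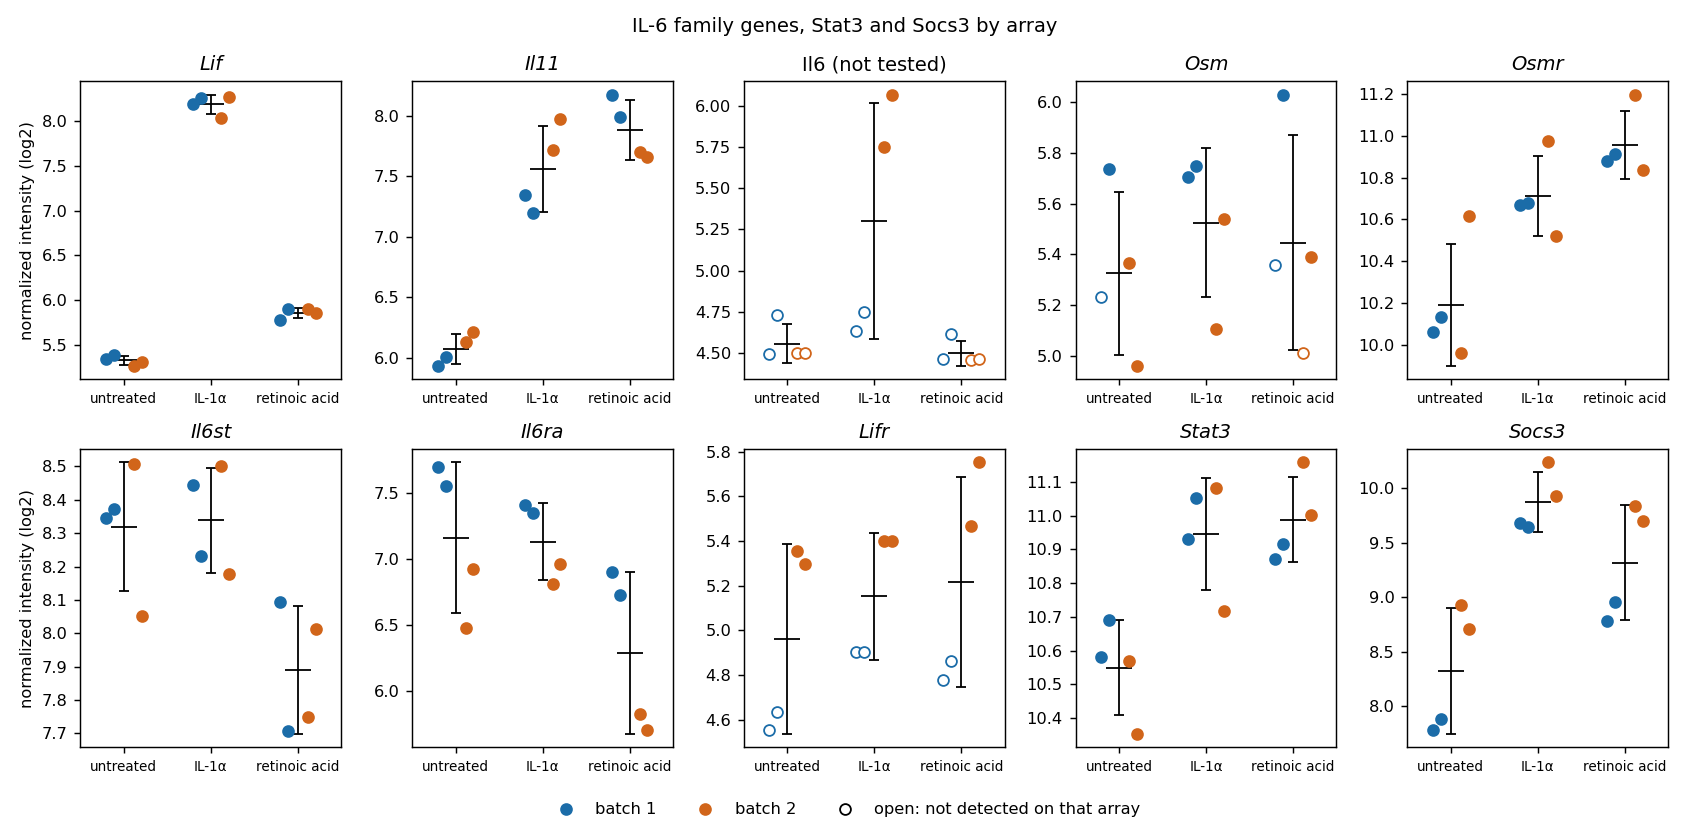
Normalized intensity (log2) of the representing probe of each gene on each of the 12 arrays, by treatment, with batch 1 in blue, batch 2 in orange and open circles where the probe was not detected; black lines give the mean and 1 SD over 4 arrays. Lif with IL-1α lies at 8.04 to 8.27, clear of all other arrays, while Il6 is detected on the 2 IL-1α arrays of batch 2 alone.

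Among the ligands, Lif, the leukaemia inhibitory factor that acts through its own receptor and gp130, had the clearest response to IL-1α. Its normalized log2 intensity was 5.35, 5.39, 5.27 and 5.31 on the untreated arrays, 8.18, 8.25, 8.04 and 8.27 with IL-1α and 5.78, 5.90, 5.90 and 5.86 with retinoic acid, the first 2 of each being from batch 1. The 3 treatments did not overlap, and batches lay on top of each other. Lif rose 7.24-fold with IL-1α, a difference of 2.86 ± 0.11 (SE, n = 4 arrays per treatment; limma adjusted p = 4.1e-09), which was 2.85 in batch 1 and 2.86 in batch 2. With retinoic acid Lif rose 1.44-fold, a difference of 0.53 ± 0.11 (limma adjusted p = 0.0018), and it lay 5.01-fold below IL-1α. Each pair of treatments reached the smallest p that 4 against 4 arrays allow in the exact two-sided permutation test, 0.0286. All 3 of these calls held under every alternative run. The other 3 Lif probes were detected on no array.

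Il11, a gp130 ligand first known for its effects on blood and bone cells, rose with both agents. Its log2 intensity was 5.93, 6.01, 6.13 and 6.21 in untreated explants, 7.35, 7.20, 7.72 and 7.97 with IL-1α and 8.17, 7.99, 7.70 and 7.65 with retinoic acid. Every treated array lay above every untreated one. The rise was 2.80-fold with IL-1α (1.49 ± 0.18 on the log2 scale; limma adjusted p = 5.3e-05) and 3.50-fold with retinoic acid (1.81 ± 0.18; limma adjusted p = 4.2e-06). The order of the 2 agents differed between the batches. In batch 1 Il11 with retinoic acid exceeded Il11 with IL-1α by 0.81 on the log2 scale, and in batch 2 it was lower by 0.17, without overlap of the arrays in either batch. The difference between batches was -0.98 (limma adjusted p = 0.0091), and 8.76% of all kept probes were called in that test. This call ended with median scaling (adjusted p = 0.23) and without batch 1 retinoic acid replicate 1, batch 1 IL-1α replicate 2 or batch 2 IL-1α replicate 2. Over both batches, retinoic acid and IL-1α differed by 0.32, with a 95% interval from -0.06 to 0.70.

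Il6 itself, the inflammatory cytokine that names the family, was undetected on 10 of the 12 arrays. Its log2 intensity on the IL-1α arrays of batch 2 was 5.75 and 6.07, both detected, against 4.50 and 4.50 on the untreated arrays of that batch. The IL-1α arrays of batch 1, at 4.64 and 4.75, were undetected. In batch 2, Il6 was thus at least 1.93-fold higher with IL-1α than in untreated explants and at least 1.84-fold higher than with retinoic acid, with 2 arrays on each side. Il6 was left out of the test by the requirement of detection on 4 arrays. With all probes tested, the limma adjusted p for IL-1α against untreated was 0.17, and that for a difference between the batches was 0.012. With probes detected on at least 2 arrays, these became 0.035 and 0.0035. Il6 passes that filter only through the 2 IL-1α arrays where it is high, so neither value counts as support.

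Osm, which encodes oncostatin M, a ligand made largely by leukocytes, was detected on 9 of 12 arrays, close to the detection limit. Its log2 intensity ran from 4.96 to 5.74 in untreated explants, from 5.11 to 5.75 with IL-1α and from 5.01 to 6.03 with retinoic acid. The 3 ranges overlapped almost wholly. The differences were 0.20 with IL-1α (95% interval -0.13 to 0.53) and 0.12 with retinoic acid (-0.21 to 0.45), neither past the test. Of 12 leukocyte markers on the array, 9 were tested. Laptm5, Coro1a, Cd68, Cd14 and Lyzs were detected on all 12 arrays, while Ptprc, Fcer1g and Itgam were detected on none. With IL-1α, Cd14 and Cd68 rose, by 2.73 and 0.97 on the log2 scale, and Lyzs and Emr1 fell, by 1.47 and 0.78. With retinoic acid, limma called 4 higher and 0 lower (4 at an unadjusted p below 0.05). They were Cd14 (1.21), Cd68 (0.73), Csf1r (0.64) and Tyrobp (0.60). Csf1r was detected on 1 untreated and 2 retinoic acid arrays, and Tyrobp on 3 and 4, so both sizes rest partly on undetected signal. Emr1 was detected on 2 of the 4 arrays of each treatment, and its IL-1α difference was -0.30 in batch 1 and -1.26 in batch 2. Of all kept probes, 15.2% rose and 14.1% fell with IL-1α, and 18.2% and 17.1% with retinoic acid. The summed linear intensity of the leukocyte list was 9094 to 9756 in untreated explants, 7858 to 11861 with IL-1α and 10725 to 12101 with retinoic acid.

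Of the receptor chains, Osmr, the signalling partner of gp130 for oncostatin M, was the one that rose. Its brightest probe read 10.06, 10.13, 9.96 and 10.62 in untreated explants, 10.67, 10.68, 10.98 and 10.52 with IL-1α and 10.88, 10.91, 11.20 and 10.84 with retinoic acid. The retinoic acid arrays lay above all untreated arrays, while the IL-1α arrays overlapped them through 1 array of batch 2 on each side. The rise with retinoic acid was 1.70-fold (0.76 ± 0.16; limma adjusted p = 0.0022), and it held under every alternative run. The rise with IL-1α was 1.43-fold (0.52 ± 0.16; limma adjusted p = 0.027), and this call ended, with adjusted p up to 0.12, under 8 of 24 alternatives, of which 6 left out 1 untreated or IL-1α array. Those arrays were both untreated and both IL-1α arrays of batch 1, and replicate 1 of each in batch 2. A second Osmr probe was detected on the 4 retinoic acid arrays alone, at least 1.46-fold over untreated and at least 1.33-fold over IL-1α. The brightest probe differed by 0.24 between the agents (95% interval -0.10 to 0.59).

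Il6st and Il6ra fell with retinoic acid. Il6st, the gp130 chain on which the whole family depends, read 8.35, 8.37, 8.51 and 8.05 in untreated explants, 8.44, 8.23, 8.50 and 8.18 with IL-1α and 8.10, 7.71, 7.75 and 8.01 with retinoic acid. The retinoic acid arrays lay below all IL-1α arrays and overlapped the untreated ones through 1 array. Il6st fell 1.35-fold with retinoic acid (-0.43 ± 0.13; limma adjusted p = 0.024) and was 1.36-fold lower with retinoic acid than with IL-1α (adjusted p = 0.022). The first call ended under 7 of 24 alternatives (adjusted p up to 0.38) and the second under 6 (up to 0.23), median scaling among both. Those that left out an array were, for the first, batch 1 untreated replicate 2, batch 1 retinoic acid replicate 2, batch 2 untreated replicate 1 and batch 2 retinoic acid replicate 1. For the second they were replicate 1 of IL-1α in either batch, batch 1 retinoic acid replicate 2 and batch 2 retinoic acid replicate 1. With IL-1α the difference of Il6st from untreated was 0.02 (95% interval -0.27 to 0.31).

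Il6ra, the chain that binds IL-6 itself, read 7.70, 7.56, 6.47 and 6.93 in untreated explants, 7.41, 7.35, 6.81 and 6.96 with IL-1α and 6.90, 6.73, 5.82 and 5.70 with retinoic acid at its brightest probe. Within each batch the retinoic acid arrays were below all others, although batch 1 with retinoic acid overlapped batch 2 without it. The fall with retinoic acid was 1.83-fold (-0.88 ± 0.14; limma adjusted p = 0.00036), by 0.81 in batch 1 and 0.94 in batch 2. Il6ra was also 1.80-fold lower with retinoic acid than with IL-1α (adjusted p = 0.00052). Both calls ended only where batch was left out of the model. The 2 other tested Il6ra probes, detected in batch 2 alone, gave differences of -0.15 and -0.16 from untreated over both batches, which did not pass the test. In batch 2, these probes differed with retinoic acid by -0.40 and -0.37 from untreated and by -0.71 and -0.65 from IL-1α. The 2 arrays on each side did not overlap there. Over both batches the 2 probes were lower with retinoic acid than with IL-1α by 0.48 and 0.43 (limma adjusted p = 0.012 and 0.023). These calls ended with median scaling, with batch left out of the model and without either retinoic acid array of batch 2. The second of them ended also with an offset of 50 and without either IL-1α array of batch 2.

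Lifr, the LIF receptor chain, was detected on all 6 arrays of batch 2 and on no array of batch 1. In batch 2 it read 5.36 and 5.30 untreated, 5.40 and 5.40 with IL-1α and 5.47 and 5.75 with retinoic acid. The differences over all arrays, 0.19 with IL-1α and 0.25 with retinoic acid, did not pass the test. Their 95% intervals were -0.06 to 0.44 and -0.0003 to 0.51.

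Stat3 and Socs3 are the transducer and the brake of the pathway. The brightest Stat3 probe read 10.58, 10.69, 10.57 and 10.35 in untreated explants, 10.93, 11.05, 11.08 and 10.72 with IL-1α and 10.87, 10.92, 11.16 and 11.00 with retinoic acid, so that every treated array lay above every untreated one. The rises were small, 1.32-fold with IL-1α (0.40 ± 0.12; limma adjusted p = 0.022) and 1.36-fold with retinoic acid (0.44 ± 0.12; limma adjusted p = 0.010). The IL-1α call ended under 7 of 24 alternatives (adjusted p up to 0.14), of which 5 left out 1 array, namely either IL-1α array of batch 1, replicate 1 of IL-1α in batch 2 or either untreated array of batch 2. The retinoic acid call ended with treatment alone in the model (adjusted p = 0.075). The second Stat3 probe differed by 0.16 with IL-1α and 0.15 with retinoic acid, neither past the test. Between the agents Stat3 differed by 0.04 (95% interval -0.21 to 0.29).

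Socs3 read 7.78, 7.88, 8.93 and 8.71 in untreated explants, 9.68, 9.65, 10.24 and 9.93 with IL-1α and 8.78, 8.95, 9.84 and 9.70 with retinoic acid. In each batch IL-1α was highest, retinoic acid between and untreated lowest, without overlap. Socs3 rose 2.93-fold with IL-1α (1.55 ± 0.14; limma adjusted p = 3.8e-06) and 1.99-fold with retinoic acid (0.99 ± 0.14; limma adjusted p = 8.6e-05). It was 1.47-fold lower with retinoic acid than with IL-1α (-0.56 ± 0.14; adjusted p = 0.0068), which was 0.80 in size in batch 1 and 0.32 in batch 2. That last call ended with median scaling (adjusted p = 0.17). With batch left out of the model, the calls between the agents and for retinoic acid against untreated both ended.

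**Figure D2:**
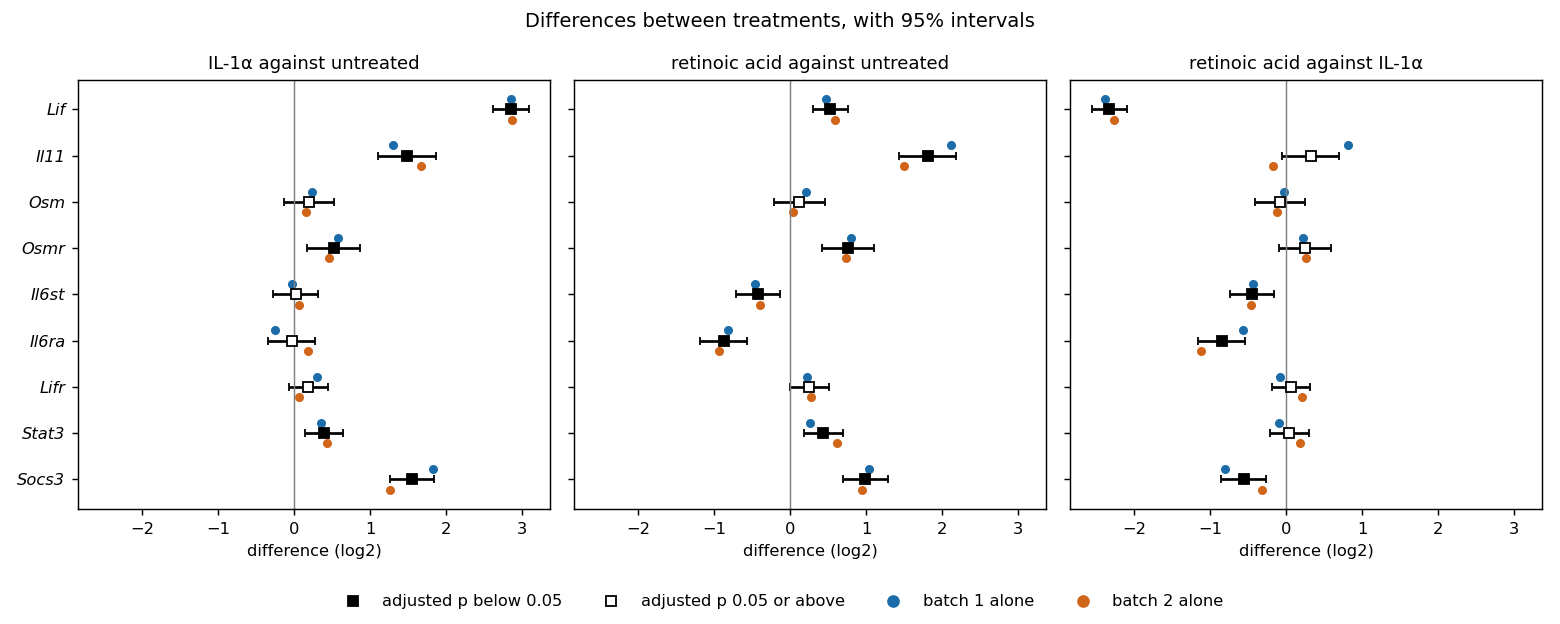
Difference between treatments (log2) for the 9 tested genes at their brightest kept probe, as squares with 95% intervals from the model across all probes, and as circles for each batch alone. Lif stands furthest from 0 with IL-1α (2.86), Il11 with retinoic acid (1.81), and in the third panel the batches of Il11 lie on opposite sides of 0 (0.81 and -0.17).

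The treatment effects were compared between the batches for all 13 tested probes. For IL-1α against untreated and for retinoic acid against untreated, limma called 0 of the 13 (2 and 3 at an unadjusted p below 0.05), where 4.82% and 2.86% of all kept probes were called. On simulated data this test recovered 6% of the changed probes for IL-1α, so an uncalled probe is not shown to respond alike in both batches. Between the batches, 33.4% of all kept probes were higher in batch 2 and 42.9% lower, and these shares depended on the scaling. The median difference over all kept probes was -0.13 on the log2 scale, and 0.51 with median scaling, where 88.4% of calls were higher in batch 2 in place of 43.8%. Of the 13 member probes, 5 were higher in batch 2 and 3 lower. Of the 5, 3 were detected in batch 2 alone and were tested only because of it, namely the Lifr probe (at least 1.06-fold higher) and the dimmer Il6ra probes (at least 1.29-fold and 1.08-fold higher). Over the other 10 probes, 2 were higher and 3 lower. The 2 were Socs3, by 0.77 (1.52 with median scaling), and the second Stat3 probe, by 1.66 (adjusted p = 8.1e-10; 2.41 with median scaling). The 3 lower were Osm, by 0.41, the brightest Il6ra probe, by 0.83, and the second Osmr probe, by 0.47, and none of these calls held with median scaling, where the differences were 0.08, 0.05 and -0.16. The brightest Stat3 probe differed by -0.03, and by 0.51 with median scaling, so that the 2 Stat3 probes stood apart under either scaling. Il11, Lif, Il6st and the brightest probes of Osmr and Stat3, not called by quantile normalization, were called higher in batch 2 with median scaling.

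**Figure D3:**
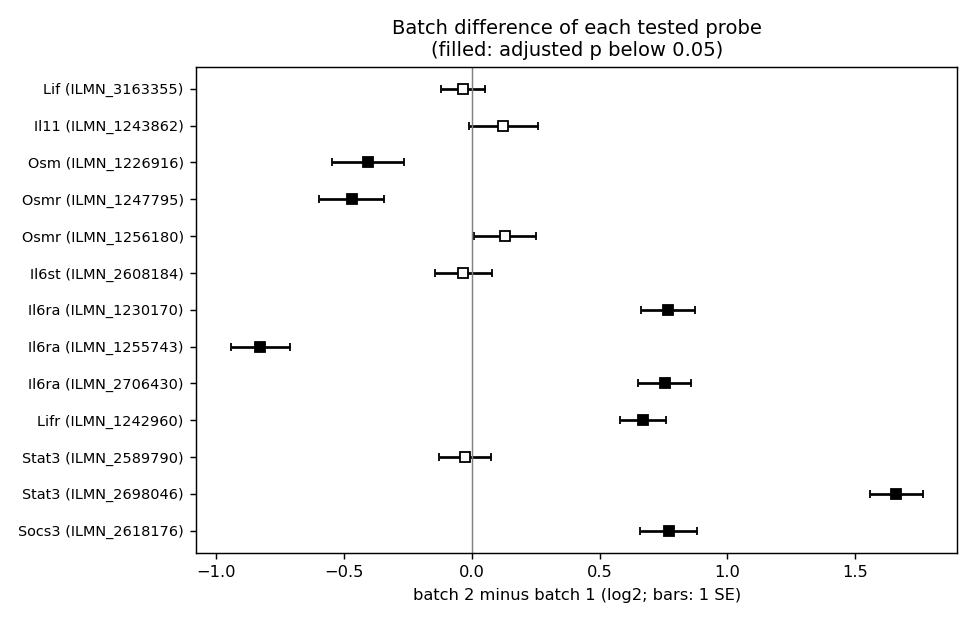
Batch 2 minus batch 1 (log2) for each of the 13 tested probes, over 6 arrays per batch, with bars of 1 SE and filled squares where the adjusted p was below 0.05. The 2 Stat3 probes lie at -0.03 and 1.66, and the brightest Il6ra probe at -0.83. The other 2 Il6ra probes and the Lifr probe were undetected in batch 1, so that their distance from 0 is not a measured size. The 3 probes with filled squares below 0 were not called with median scaling.

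Other ligands and receptors of the family were counted over a list of 13 genes, of which 12 were on the array and 5 were tested. Of all kept probes, 15.2% rose and 14.1% fell with IL-1α, and 18.2% and 17.1% with retinoic acid. With IL-1α, 3 of the 5 rose and 0 fell (3 at an unadjusted p below 0.05). They were Clcf1, a ligand of the CNTF receptor, by 0.84 on the log2 scale, Ebi3, a subunit of IL-27 and IL-35, by 0.75, and Il12a, the other subunit of IL-35, by 1.01. Ebi3 was detected on 3 of the 4 untreated arrays and Il12a on 2. In batch 1 and batch 2 the differences were 1.23 and 0.27 for Ebi3 and 1.57 and 0.46 for Il12a. With retinoic acid, limma called 0 higher and 2 lower (2 at an unadjusted p below 0.05). Ctf1, which encodes cardiotrophin-1, fell by 1.27 and Il11ra1, the receptor chain of IL-11, by 0.77. Cntfr, the CNTF receptor chain, was detected on no array. The median over the 5 genes was 0.75 with IL-1α and -0.17 with retinoic acid, against 0.02 over all kept probes in both.

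Of 13 tested Janus kinases, STATs and adaptors, 5 rose and 2 fell with IL-1α, and 4 rose and 1 fell with retinoic acid. Of all kept probes, 15.2% rose and 14.1% fell with IL-1α, and 18.2% and 17.1% with retinoic acid. Those that rose with IL-1α were Stat5a (1.24 on the log2 scale), Ptpn11 (0.95), Stat6 (0.93), Stat2 (0.57) and Jak2 (0.53). Jak1, the main kinase bound to gp130, was detected on all 4 untreated arrays but on none with IL-1α, and was at least 1.58-fold higher in untreated explants. It passed the filter only through the untreated arrays, where it is high, so its calls as lower follow in part from its selection. Without Jak1, the gene called lower with IL-1α was Gab1, an adaptor, which fell by 0.44, and none was called lower with retinoic acid. With retinoic acid Stat6 (0.92), Ptpn11 (0.52), Stat5a (0.42) and Jak3 (0.41) rose, and Jak1 was called lower, with detection on 1 of 4 arrays, so that no size is given. The medians were 0.10 and 0.06.

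Of 13 tested inhibitors of cytokine signalling other than Socs3, 4 rose and 1 fell with IL-1α, and limma called 4 higher and 0 lower with retinoic acid (5 at an unadjusted p below 0.05), against the same shares of all kept probes. Cish, a STAT-induced relative of Socs3, rose by 1.54 on the log2 scale with IL-1α and 1.76 with retinoic acid, and was detected on 3 of the 4 untreated arrays. Ptpn2, a phosphatase that acts on Janus kinases and STATs, rose by 1.80 with IL-1α, and its difference with retinoic acid was 0.20, not past the test. Ptpn1, a related phosphatase, rose by 1.18 and 0.85. The remaining calls were Pias4 (0.47) and Pias1 (-0.54) with IL-1α, and Pias2 (0.67) and Socs5 (0.38) with retinoic acid. Socs1 was at 0.19 and 0.13, past the test with neither agent. The medians of this list were 0.22 and 0.20.

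Of 21 tested genes known as STAT3 targets, 8 rose and 3 fell with IL-1α, and 6 rose and 7 fell with retinoic acid, where 15.2% and 14.1% of all kept probes rose and fell with IL-1α and 18.2% and 17.1% with retinoic acid. Between the agents, 12 were lower with retinoic acid and 3 higher, where 15.8% of all kept probes were lower and 15.2% higher. The medians were 0.50 with IL-1α, 0.18 with retinoic acid and -0.55 between them. The targets are shared with other pathways, including NF-kB. Those that rose with both agents included Cebpb, a transcription factor of the acute phase (1.39 and 1.00 on the log2 scale), Junb, an AP-1 subunit (1.42 and 0.73), Bcl3, a regulator of NF-kB (1.34 and 0.80), and Tnfrsf12a, the TWEAK receptor (1.33 and 1.07), which were named after their values were seen. Hp, an acute phase protein that binds haemoglobin, rose by 1.93 on the log2 scale with IL-1α and fell by 0.76 with retinoic acid. Lcn2, a siderophore-binding protein, rose by 1.04 and fell by 0.93. Saa3, an acute phase apolipoprotein, fell by 2.62 with retinoic acid, and its difference with IL-1α was 0.79, not past the test. The differences with retinoic acid were larger in batch 2, at -4.31 against -0.93 in batch 1 for Saa3 and -1.65 against -0.22 for Lcn2, and the effects differed between batches for both (limma adjusted p = 1.7e-06 and 0.00070). Their intensity with IL-1α averaged 13.5 for Hp, 13.97 for Lcn2 and 13.99 for Saa3, near the highest normalized value on the arrays, 14.24. Fgl1, a fibrinogen-like protein of the liver, fell with both agents, by 1.23 and 1.92. Of 6 neutrophil markers, 4 fell with retinoic acid and 0 were called with IL-1α (limma; 1 at an unadjusted p below 0.05), and their summed linear intensity was 9490 to 15313 in untreated explants, 16178 to 16956 with IL-1α and 5517 to 14564 with retinoic acid. By batch, the mean sum went from 14139 untreated to 5518 with retinoic acid in batch 1 and from 10414 to 14117 in batch 2. The sum leans on S100a8, the brightest of the 6. In batch 2 S100a8 and S100a9 were higher with retinoic acid, by 0.74 and 0.54 on the log2 scale, and neither was called over both batches. Mpo, Ngp, Camp and Ltf, the 4 that fell, were lower in both batches (-0.50, -0.53, -0.32 and -0.07 in batch 2). The part of the neutrophil markers in the results of Saa3 and Lcn2 was not tested. Adam17, which sheds IL-6 receptor from cells, was at 0.25 and -0.13 against untreated, past the test with neither agent.

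**Figure D4:**
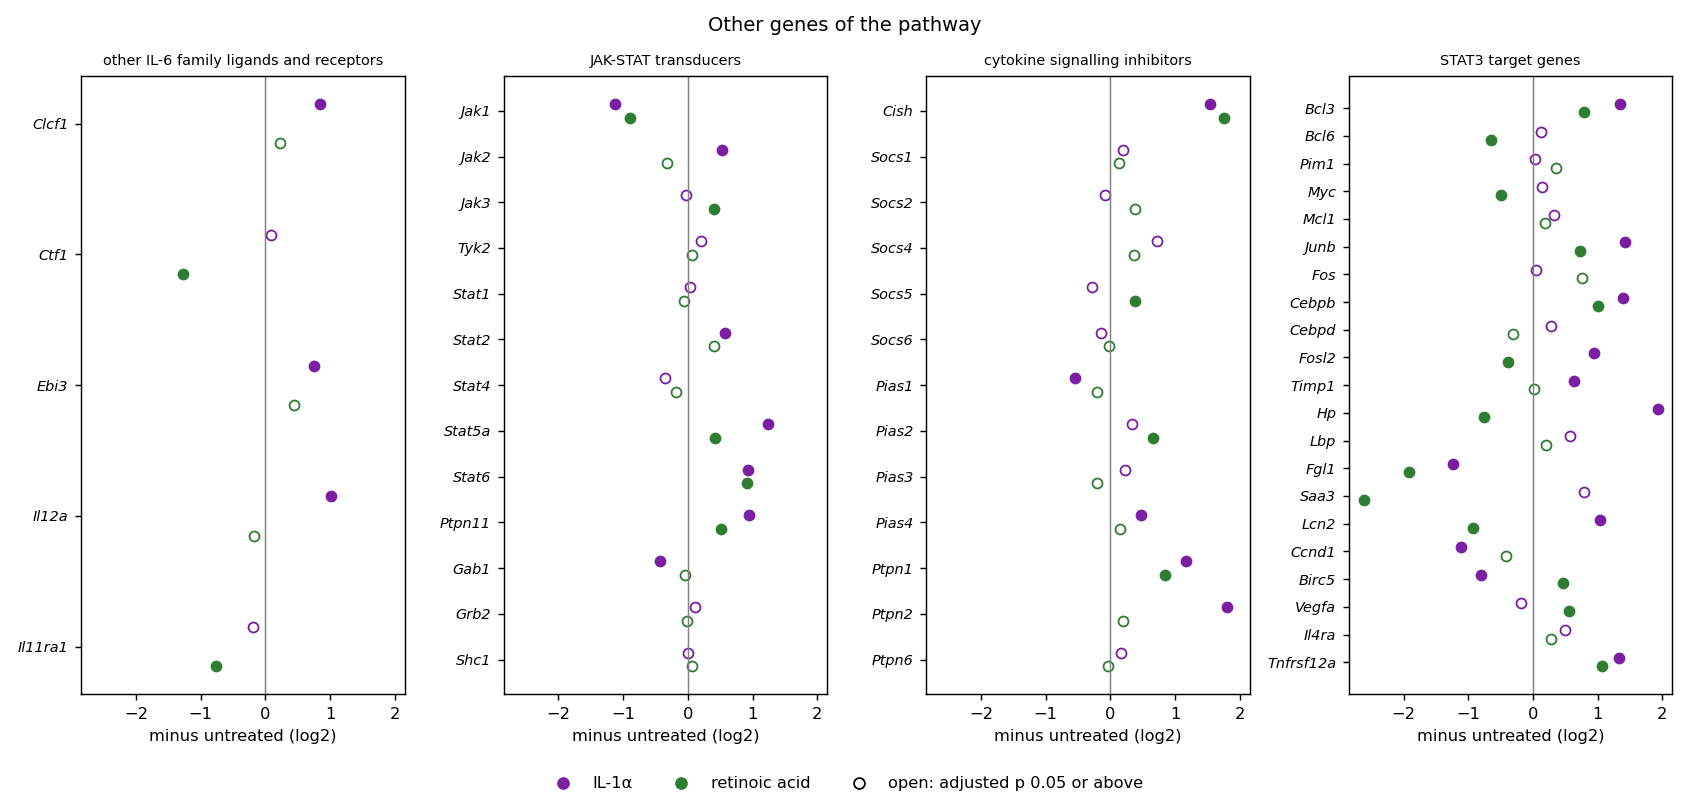
Difference from untreated (log2) of the representing probe of each tested gene counted on the 4 pathway lists, for IL-1α in purple and retinoic acid in green, filled where the adjusted p was below 0.05. Ptpn2 with IL-1α lies at 1.80, and Hp lies on opposite sides of 0 with the 2 agents.

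The genes whose pattern was most like each member's were taken as the highest Pearson correlations across the 12 arrays after the mean of each batch was removed. For Lif these were Cx3cl1, a chemokine (r = 0.997), Gpr84, a receptor for fatty acids (r = 0.990), and 6430530L21Rik (r = 0.989). For Il11 the nearest was Sdc1, a cell surface proteoglycan (r = 0.980), for Socs3 Usp39 (r = 0.993), for Stat3 Cxxc1 (r = 0.988) and for Il6ra Fxyd5 (r = 0.985). The highest value for Osm was 0.883, the lowest of the 9 members. These are descriptions over arrays that share treatments, each picked as the highest among all kept probes.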

How the data were processed

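Femoral head cartilage RNA was hybridised to 12 Illumina Sentrix Mouse 1.1 bead arrays. The authors deposited linear probe intensities, not background subtracted or normalized, for all arrays in 1 table. The authors also deposited a detection score per probe, a fraction between 0 and 1, in columns named as p-values; it rises with intensity (Spearman 0.996 to 0.999 per array), so the detection p was taken as 1 minus the score. The bead summary software is not given in the sources used here, and limma is the tool the submitters' processing notes name. The labels describe 24 h in medium with serum before treatment, and the paper's methods describe serum-free culture of 3 unpooled mice per treatment.

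Intensities were corrected and quantile normalized with neqc (offset of 16, log2) in limma 3.58.1 under R 4.3.3. Probes with a detection p below 0.05 on at least 4 of 12 arrays were kept (18200 of 46632). The model, after the paper's methods, held treatment and a 4-level factor of batch and replicate (6 residual degrees of freedom), and p-values were adjusted by Benjamini-Hochberg over all kept probes at 0.05. Effects between batches were tested with 6 groups of treatment and batch, and the batch difference with treatment and batch. Exact permutation exchanged 8 arrays in 70 ways. A gene with several probes is represented by its brightest kept probe. Folds marked "at least" set the bright group against the lowest detected signal of each array (4.86 to 5.48 on the log2 scale). No 2 arrays were identical, and the number of arrays limits the precision.

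Genes were named by rule: every member probe, of each other list the called genes with the largest differences (at most 4) and any gene that a count of 5 or fewer refers to, the treatment checks, and the most alike genes. The members and lists were chosen with earlier results of these data known. An item of the list of other ligands and receptors is not reported here, and the counts and median of that list leave it out. Marker lists of fibroblasts (6 of 7 lower with IL-1α, 6 lower and 1 higher with retinoic acid), endothelium (3 of 6 lower with IL-1α, 1 higher with retinoic acid), osteoblasts (2 of 3 lower with either) and osteoclasts (2 of 3 higher with either) were also computed; of 9 leukocyte markers, 2 rose and 2 fell with IL-1α and 4 rose with retinoic acid. The shares of all kept probes were 15.2% higher and 14.1% lower with IL-1α, and 18.2% and 17.1% with retinoic acid. Other normalizations, filters, models and the omission of each array were tried. The functions were tested on simulated data with 200 changed probes. Of these, 54.5% were recovered for IL-1α against untreated, 6% for an effect of IL-1α differing between batches and 83.5% for batch.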

Additional observations from a re-analysis of the deposited data

Results flagged for a closer look

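Il11 was singled out because the difference between its levels with retinoic acid and with IL-1α was not the same in the 2 batches, by -0.98 on the log2 scale as batch 2 minus batch 1 (limma adjusted p = 0.0091). The levels were higher with retinoic acid in batch 1 and with IL-1α in batch 2. In this test limma called 1 of the 13 member probes, and 8.76% of all kept probes. The Il11 call ended with median scaling (limma adjusted p = 0.23) and without some single arrays, named above with Il11. In all, 42 sets of 4 arrays of 1 treatment were examined, over the member probes and the number of detected probes. Of these, 0 had an array standing apart from the others by Dixon's test, where chance marks about 1 in 20 in sets without a batch shift. The sets pooled both batches without centring, so a large batch shift can hide such an array.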

How the results depend on the processing

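Over 897 differences of members under the alternatives, 828 kept their direction and their side of the threshold, 20 stayed uncalled with a change of sign, 46 were no longer called, 3 became called and 0 called differences reversed. With treatment alone in the model, the member probes called were 3 in place of 5 for IL-1α against untreated, 4 in place of 8 for retinoic acid against untreated and 1 in place of 7 for retinoic acid against IL-1α. The last was 3 with median scaling and 4 with probes detected on all 12 arrays, which leaves 8 member probes to test. Members whose IL-1α effect differed between batches numbered 1 in place of 0 with median scaling (Socs3), with no filter and with detection on at least 2 arrays (both Il6). For retinoic acid against IL-1α that number was 2 in place of 1 with no filter and with detection on at least 2 arrays. In both, Il6 joined Il11. With detection on at least 2 arrays, Il6 was tested in either comparison only because of the IL-1α arrays that detected it. With median scaling the number for retinoic acid against IL-1α stayed 1, but Socs3 took the place of Il11. Batch calls among members were 3 in place of 8 with probes detected on all 12 arrays and 4 with a detection p under 0.01, where fewer probes were tested, and 5 without the 3 probes detected in 1 batch alone, an exclusion chosen after seeing the data. With median scaling they were 10, of which 5 were shared. Leaving out each array gave 3 to 5 called members for IL-1α against untreated, 6 to 8 for retinoic acid against untreated, 3 to 7 for retinoic acid against IL-1α, 0 to 1 for the batch difference of that last comparison and 7 to 8 for batch. The lowest counts came without batch 1 IL-1α replicate 1, batch 1 IL-1α replicate 2 or batch 2 IL-1α replicate 1 for IL-1α against untreated (3 each), and without batch 2 retinoic acid replicate 1 (3) or replicate 2 (4) for retinoic acid against IL-1α. Causes other than fewer probes or arrays were not tested.

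Median scaling moved the median of all kept probes for retinoic acid against untreated from 0.02 to 0.14 on the log2 scale. The share of calls that were higher then went from 51.6% to 65.6%, and for retinoic acid against IL-1α from 49.0% to 65.6%. Under it the fall of Il6ra with retinoic acid was still called, and that of Il6st, at -0.25, was not (adjusted p = 0.38). Whether the replicate numbers paired the arrays was not settled. The correlations of same-numbered deviations were between -0.11 and 0.39, and only 2 of 6 were over 0.1. With 2 arrays per treatment in each batch, so few correlations cannot decide it. Without the replicate block, with batch kept, the members called were 5, 8 and 7, and all were shared with the blocked model. Signal over background limits Il6, Lifr, Osm and the dimmer probes of Il6ra and Osmr.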
